A study of Rattus norvegicus with 12 samples.

Results

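Thapsigargin (TG) and α-lipoic acid (α-LA) were compared directly in FaO, a hepatoma cell line from rat, at the hours that the sample titles share. The comparison rests on 4 of the 12 arrays of the study, chosen by title: the 2 TG arrays titled 18 and 24 h and the 2 α-LA arrays of the same hours, with 3 control arrays as a reference level. Messenger RNA was measured on Illumina rat bead arrays, on which the brightness of the beads that carry a probe gives the signal of a transcript. By the sample labels TG was added as 1 dose of 0.1 µM and α-LA was given daily at 500 µM. Both were in medium with 2% fetal calf serum, and each sample was a pool of 3 wells. The paper gives a higher TG dose for its Western blots and splicing assay. By the methods, α-LA was dissolved in NaOH and neutralized and TG was dissolved in DMSO. Cells were grown in DMEM with 10% serum and the control cells were untreated, while the serum share, vehicle and harvest hour of the control samples during the experiment are not given in the sources used here.

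The labels disagree on the TG hours, because the titles give 18 and 24 h while the treatment protocol gives 6 and 18 h. The titles were followed, and calls of genes under the naming rule that end when the α-LA arrays of 6 and 18 h take the place of those of 18 and 24 h are given where the gene is described. Nothing says that arrays of a group came from separate cultures, and the 2 arrays of a treatment also differ in hour. The spread behind the p-values is therefore that of these particular samples and may be technical.

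TG blocks the calcium pump that fills the endoplasmic reticulum (ER), so that calcium leaks out and calcium-dependent protein folding fails. The unfolded protein response (UPR) that follows runs through the sensors PERK, IRE1 and ATF6. ATF6 and the IRE1 product XBP1 raise ER chaperones and the machinery of ER-associated degradation, while PERK slows translation and raises ATF4 and GADD153/CHOP. α-LA is a cofactor of mitochondrial dehydrogenases that at pharmacological doses also acts on the redox state of the cell. In liver cells the ER is occupied largely with plasma proteins, which hepatocytes secrete in large amounts.

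Of 9193 probes tested, 2286 (24.9%) differed between TG and α-LA at an adjusted p under 0.05 in the fit with limma and Benjamini-Hochberg adjustment, which is the threshold for every call below. Signal was higher with TG for 1106 probes (12%) and lower for 1180 (12.8%). A difference of at least 2-fold was reached by 132 of the higher and 168 of the lower probes. The median log2 difference of all probes tested was 0.006. Counted with 1 probe per gene, 27.6% of 6552 genes differed, 13.4% higher and 14.2% lower, and these shares are the background for the gene lists. Beyond any test, both TG arrays lay above both α-LA arrays for 30.2% of probes and below them for 30.7%. Against the controls, 3631 probes (39.5%) differed with TG, 19.8% higher and 19.7% lower, and 2766 (30.1%) with α-LA, 15.4% higher and 14.7% lower. Both of these comparisons rest on the same 3 control arrays.

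Signals were quantile-normalized by the authors, so that all 12 arrays share a minimum of 88.3, a median of about 133 and a maximum of 55971, and 8409 to 8422 probes reached a signal of 150 on each. Background was still in the values, so that folds of dim genes are understated. The 2 TG arrays differed from each other with an SD of 0.148 over probes on the log2 scale, the 2 α-LA arrays with an SD of 0.294, and pairs of controls with SDs of 0.142 to 0.256, the higher values both involving control 1. Without the TG array of 18 h the number of called probes fell to 942 and without that of 24 h to 1031, in fits that assume the lone TG array to vary like the other groups. Counts given without either TG array below are from the same fits, with 1 of the 2 left out at a time. Of 9 measured hepatocyte markers 7 were above 150 on all 7 arrays, while Apoh and Hnf4a were below it on all. The measured markers of stellate cells, endothelial cells and cholangiocytes all stayed under 150, and of 5 macrophage markers only Cd14 exceeded it.

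**Figure D1:**
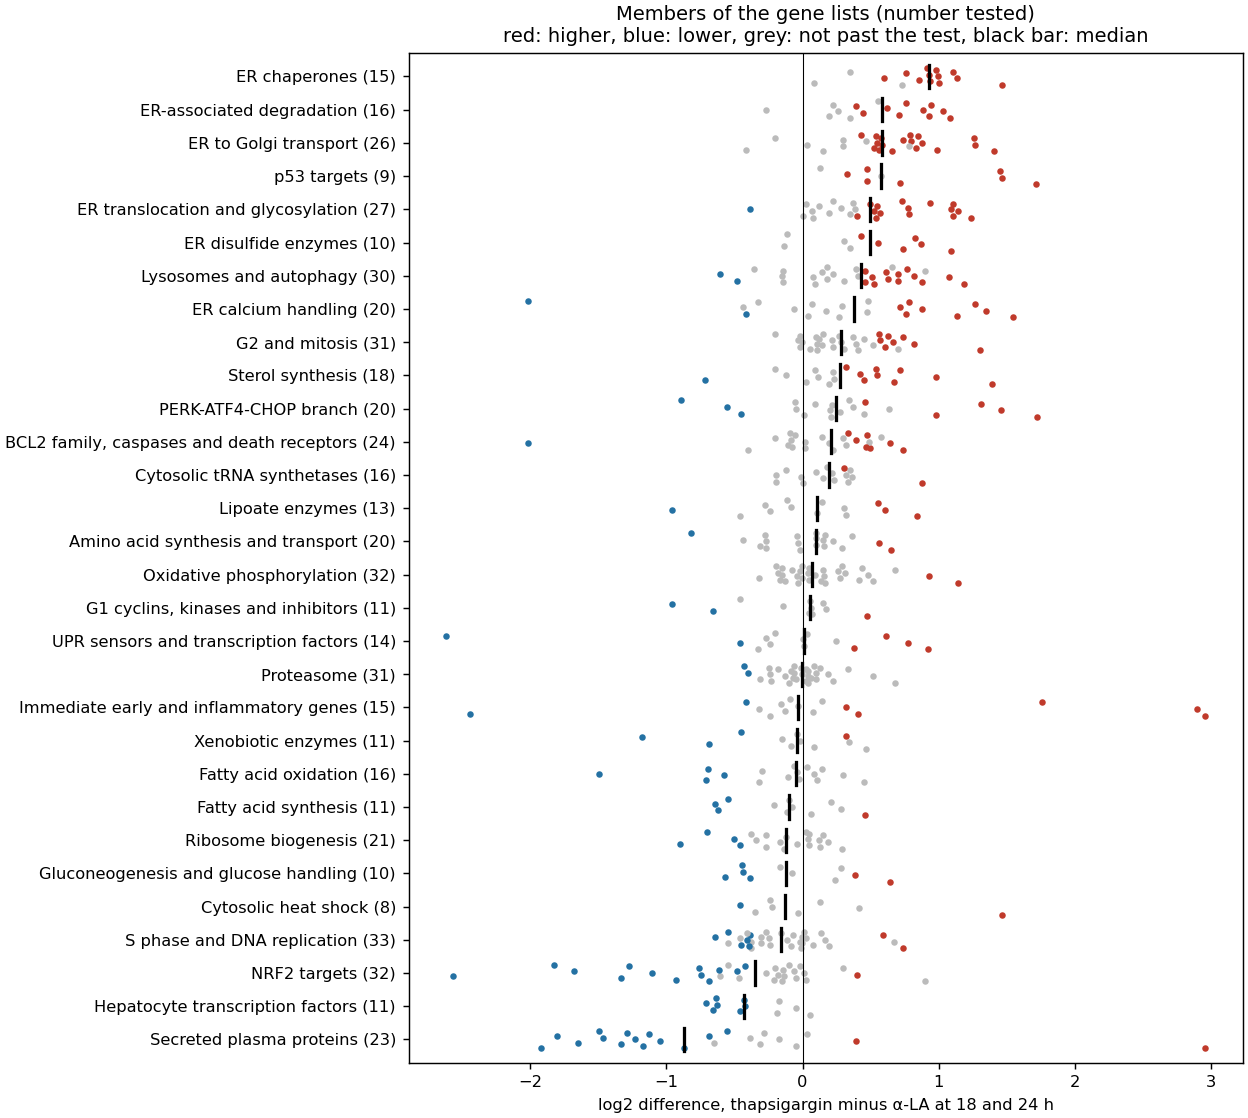
Log2 difference (TG minus α-LA at 18 and 24 h, x axis) of each measured member of 30 gene lists, ordered by the median of the list (black bar), with the number of genes tested in brackets. Red points are higher and blue points lower with TG at an adjusted p under 0.05, and grey points did not pass the test. ER chaperones have the highest median (0.925) and secreted plasma proteins the lowest (−0.868).

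Genes that fold proteins in the ER were higher with TG than with α-LA. Of 15 measured ER chaperones and co-chaperones 12 were higher and none lower, beside 13.4% and 14.2% of all genes, with a median log2 difference of 0.925. Hspa5, which encodes the main ER chaperone BIP/GRP78, had signals of 32973 and 29637 on the TG arrays of 18 and 24 h, 13522 and 18193 on the α-LA arrays of the same hours and 11820.2, 10352 and 9402 in the controls. The 3 groups did not overlap, with TG highest and the controls lowest. Hspa5 was 1.99-fold higher with TG than with α-LA (log2 difference 0.995 ± 0.16 (SE), adjusted p = 0.00235), and both treatments raised it above the controls.

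Dnajb9, an ER co-chaperone that assists degradation of misfolded proteins, had the largest difference of the list. Its signal was 1454.5 and 1448 with TG, 459.8 and 599 with α-LA and 257, 269.7 and 259.5 in the controls, a 2.77-fold difference between the treatments (log2 difference 1.47 ± 0.13 (SE), adjusted p = 0.000106). Here too α-LA lay between the controls and TG without overlap. Manf, a secreted ER stress factor, followed the same order with 3614 and 3427 with TG, 1632 and 1900.2 with α-LA and 1265, 1334 and 1281 in the controls, and so did Dnajc3, a co-chaperone of BIP, with a log2 difference of 0.86 ± 0.10 between the treatments.

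Other members of the list were above the controls with TG alone. Hsp90b1, which encodes the chaperone GRP94, had signals of 12822 and 10677 with TG, 5372.5 and 6983 with α-LA and 6398, 4773 and 5410.3 in the controls. The α-LA and control signals overlapped, and TG was 1.91-fold above α-LA (log2 difference 0.93 ± 0.17 (SE), adjusted p = 0.00451). Without the TG array of 18 h this call was lost (log2 difference 0.802, adjusted p = 0.0597). Calreticulin (Calr), a calcium-binding lectin chaperone, read 29637 and 31742 with TG, 12257 and 19638 with α-LA and 20887, 16686 and 16936 in the controls (log2 difference 0.98 ± 0.20 (SE), adjusted p = 0.00767). Its TG signals were again the highest, and α-LA and control signals overlapped.

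Creld2, a disulfide enzyme induced in ER stress, fell with α-LA and rose with TG relative to the controls. Signals were 2401 and 2106.5 with TG, 893 and 1229 with α-LA and 1652, 1534 and 1526 in the controls, with no overlap between any pair of groups. The treatments differed by 2.15-fold (log2 difference 1.10 ± 0.15 (SE), adjusted p = 0.00103), and the log2 difference from the controls was 0.52 with TG and -0.58 with α-LA. Dnajb11, another BIP co-chaperone, differed by 2.2-fold (log2 difference 1.14 ± 0.11 (SE), adjusted p = 0.00022), and Sdf2l1, a component of ER chaperone complexes, by at least 1.71-fold, since its α-LA signals were under 150. Canx, Fkbp2 and Sil1 did not pass. Calnexin (Canx), the membrane counterpart of calreticulin, had 2484 and 2687 with TG against 1073 and 2265 with α-LA (log2 difference 0.73 ± 0.32 (SE), adjusted p = 0.136), so that its α-LA arrays lay further apart than the treatments at 24 h.

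**Figure D2:**
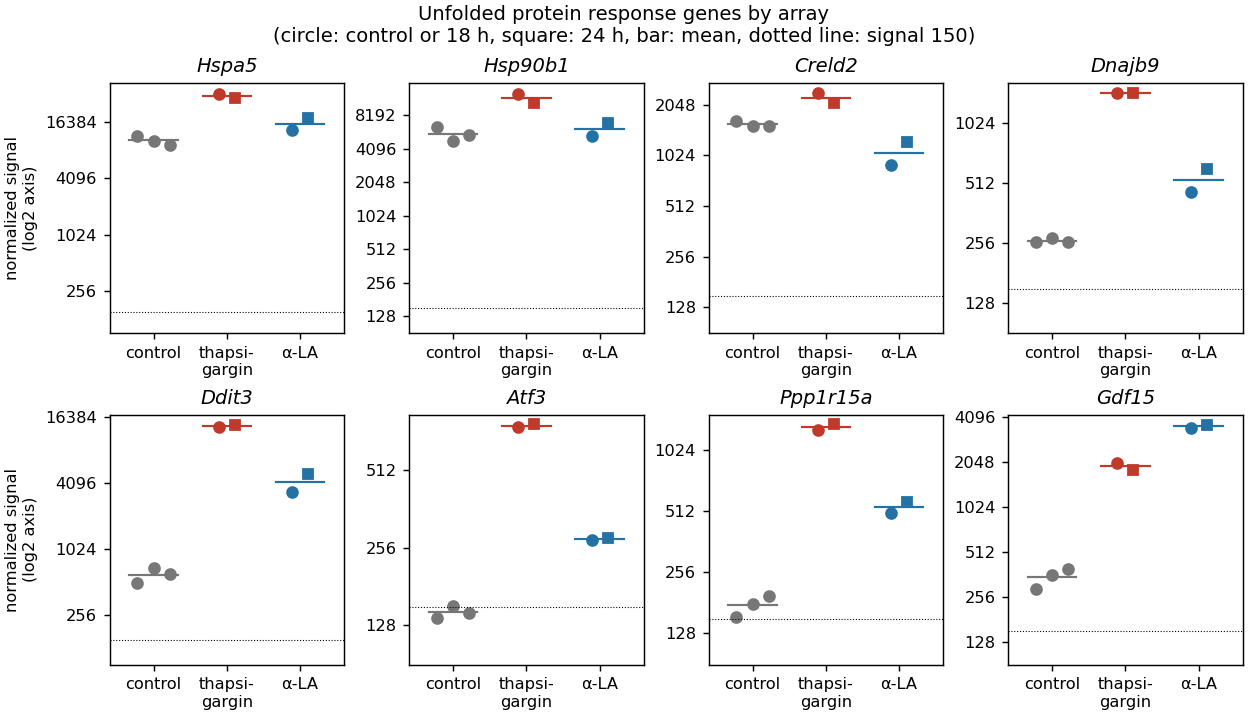
Normalized signal (log2 axis) of 8 UPR genes on the 3 control arrays (grey), the 2 TG arrays (red) and the 2 α-LA arrays (blue), with circles for controls and 18 h, squares for 24 h, bars for group means and a dotted line at signal 150. TG is highest for 7 of the genes, while Gdf15 is highest with α-LA.

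ER stress response elements in the promoters of these chaperone genes are the sites at which NF-Y and ATF6 are known to bind, and they are shown because Hspa5 and several other members of the list carry them. The windows are those of RefSeq on build GRCr8, from 250 bases before to 50 bases after the start of each gene, and 27457 genes had at least 1 window. The element was searched on both strands as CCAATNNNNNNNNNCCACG, where N is any base, and was found in 21 genes (0.0765%). Of 14 measured ER chaperones with a window 6 held it. Capitals mark the fixed bases, each element is read 5′ to 3′ on its own strand, and positions count from the first base of the transcript as 1, with the base before it as −1.
Hspa5, chr3:38452973-38452991, positions −43 to −25: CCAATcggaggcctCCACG
Hsp90b1, chr7:23012451-23012469, positions −176 to −158: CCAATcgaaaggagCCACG
Hsp90b1, chr7:23012347-23012365, positions −72 to −54: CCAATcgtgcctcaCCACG
Creld2, chr7:121789239-121789257, positions −145 to −127: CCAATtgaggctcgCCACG
Calr, chr19:40213135-40213153, positions −232 to −214: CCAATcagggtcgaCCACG
Dnajc3, chr15:102432534-102432552, positions −133 to −115: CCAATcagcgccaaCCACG
Canx, chr10:35158069-35158087, positions −230 to −212: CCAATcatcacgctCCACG

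The whole windows of the genes of BIP/GRP78 and GRP94 show where the elements sit, with each element in capitals as it stands on the strand of the gene, so that the second element of Hsp90b1 appears as its reverse complement. Hspa5 lies on the plus strand at chr3:38452766-38453065 and Hsp90b1 on the minus strand at chr7:23012244-23012543.
Hspa5: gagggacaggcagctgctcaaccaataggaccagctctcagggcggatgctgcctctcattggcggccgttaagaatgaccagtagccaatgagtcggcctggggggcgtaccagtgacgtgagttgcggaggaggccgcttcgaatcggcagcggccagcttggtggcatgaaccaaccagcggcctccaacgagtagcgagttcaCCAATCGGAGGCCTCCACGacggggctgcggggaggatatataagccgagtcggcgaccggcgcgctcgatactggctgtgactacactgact
Hsp90b1: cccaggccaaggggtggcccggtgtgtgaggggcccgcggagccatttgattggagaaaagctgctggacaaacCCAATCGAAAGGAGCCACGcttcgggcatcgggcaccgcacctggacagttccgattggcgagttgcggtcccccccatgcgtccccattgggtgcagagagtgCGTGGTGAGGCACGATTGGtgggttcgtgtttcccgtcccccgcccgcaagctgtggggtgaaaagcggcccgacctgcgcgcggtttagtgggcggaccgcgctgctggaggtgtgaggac

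Of the 21 genes with the element 12 were tested. Of these 6 were higher with TG than with α-LA and none lower, beside 13.4% and 14.2% of all genes. The 6 were Hspa5, Hsp90b1, Creld2, Calr, Dnajc3 and Zfand2a, a zinc-finger gene of the stress response with a log2 difference of 0.89 ± 0.125. All but Zfand2a are ER chaperone genes already counted above. Ankmy2, Canx, Hnrnpa3, Pan2, Xbp1 and Zfp57 carried the element and did not pass. A shorter form, ER stress response element II (ATTGGNCCACG, both strands), was found in 17 genes (0.0619%). Of these 7 were tested, 5 were higher with TG and none lower, beside the same shares of all genes. The shorter form stands in Dnajb11 at chr11:91672800-91672810 and in Herpud1 at chr19:10614821-10614831, which are members of the chaperone and degradation lists.
Dnajb11: ATTGGcCCACG
Herpud1: ATTGGgCCACG

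A match of letters is a description and not a binding site. Of the measured members, 6 disulfide, 13 degradation, 26 translocation and glycosylation and 25 transport genes had a window, and none held the longer element. Measured members without a window were not searched. Ero1b and Derl3, which carry the longer element, were not tested.

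Genes of ER-associated degradation, which draws misfolded proteins out of the ER for the proteasome, were also higher with TG. Of 16 measured members 10 were higher and none lower, with a median log2 difference of 0.587. Os9, a lectin that recognises misfolded glycoproteins, had signals of 1496.5 and 1602 with TG, 815 and 657 with α-LA and 913, 1077 and 1002 in the controls. TG lay above and α-LA below every control, and the treatments differed by 2.12-fold (log2 difference 1.08 ± 0.13 (SE), adjusted p = 0.000536). Sel1l, the scaffold of the ubiquitin ligase complex of the ER membrane, showed the same order with 689 and 601 with TG, 318 and 311 with α-LA and 519, 495 and 468 in the controls (log2 difference 1.03 ± 0.11 (SE), adjusted p = 0.000263). Its ligase partner Syvn1 and the mannosidase-like factor Edem2 were likewise higher with TG and lower with α-LA than the controls, with log2 differences between the treatments of 0.76 ± 0.10 and 0.94 ± 0.115. Herpud1, which organises this complex, rose above the controls with both treatments and was 1.9-fold higher with TG (log2 difference 0.93 ± 0.16 (SE), adjusted p = 0.00331), a call lost with the later α-LA arrays in the fit (adjusted p = 0.0588). Selenos, a selenoprotein that recruits the extracting ATPase, read 9222 and 9667 with TG and 5152 and 5093 with α-LA (log2 difference 0.88 ± 0.095 (SE), adjusted p = 0.000287). Vcp, that ATPase itself, differed by 0.19 ± 0.11 and did not pass. Of 31 subunits of the proteasome 2 were lower with TG, none was higher and the median was −0.006.

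Entry into the ER, glycosylation and transport onward were the next groups. Of 27 genes of translocation and glycosylation 15 were higher with TG and 1, the glucosidase gene Mogs, was lower, with a median of 0.497. Sec11c, a subunit of the signal peptidase, had signals of 6226 and 6251 with TG, 2624 and 2656 with α-LA and 1882, 2282.5 and 2255 in the controls. The α-LA signals did not differ from the controls past the threshold, while TG was 2.36-fold above α-LA (log2 difference 1.24 ± 0.12 (SE), adjusted p = 0.000163). Sec61a1, the pore of the translocon, read 624 and 518 with TG and 241.5 and 296 with α-LA (log2 difference 1.09 ± 0.13 (SE), adjusted p = 0.00054). The count of higher members fell to 4 without the TG array of 18 h, to 8 without that of 24 h and to 9 with background subtracted.

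Of 26 genes of transport between ER and Golgi 18 were higher with TG and none lower, with a median of 0.581. Copg1, a subunit of the COPI coat, read 4158.5 and 3867 with TG, 1451 and 1575 with α-LA and 2167, 1814 and 1750.5 in the controls. TG was 2.65-fold above α-LA (log2 difference 1.41 ± 0.13 (SE), adjusted p = 0.000112), and the α-LA arrays lay below the controls without passing the test. Its partner Cope differed by 2.41-fold and the Golgi membrane gene Yif1a by 2.39-fold. Without the TG array of 18 h, 8 members were called. Among 10 disulfide enzymes 6 were higher and none lower, but 0 were called without the TG array of 18 h and 1 without that of 24 h or without the α-LA array of 18 h. P4hb, the classic protein disulfide isomerase, had 19474 and 18115 with TG against 9044 and 12418 with α-LA (log2 difference 0.83 ± 0.185 (SE), adjusted p = 0.0114), a call lost without the TG arrays of 18 and 24 h (adjusted p = 0.0954 and 0.0645) and the α-LA array of 18 h (0.0532), each left out alone. Pdia4, which encodes Erp72, had 2909.8 and 2185 against 1911 and 2183 (log2 difference 0.30 ± 0.15 (SE), adjusted p = 0.187). Pdia3, which encodes Erp57, had 3832 and 3163 with TG against 1072.5 and 2493 with α-LA (log2 difference 1.09 ± 0.31 (SE), adjusted p = 0.0315). Its same-hour differences were 1.84 at 18 h and 0.34 at 24 h, so its α-LA arrays lay far apart.

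The upstream sensors and transcription factors of the UPR had no common direction. Of 14 members 4 were higher and 2 lower, beside 13.4% and 14.2% of all genes, with a median of 0.007. Fewer were called higher without either TG array. Eif2ak3, which encodes PERK, had 459 and 431.5 with TG, 306 and 275 with α-LA and 329, 277 and 326 in the controls (log2 difference 0.62 ± 0.12 (SE), adjusted p = 0.00593), and the call was lost without the TG array of 18 h (adjusted p = 0.0628). Creb3, an ER-bound factor that is released by proteolysis, was 1.9-fold higher with TG (log2 difference 0.92 ± 0.11 (SE), adjusted p = 0.000492). Xbp1 mRNA, with 6592 and 5239.8 with TG and 6144 and 5514 with α-LA, differed by 0.01 ± 0.145 (adjusted p = 0.959), which is a level of the transcript and no measure of its splicing. Mapk8, a JNK gene, was close to 150 on all of these arrays and did not pass (log2 difference 0.08 ± 0.13 (SE), adjusted p = 0.716). No tested probe was named for Ern1, Atf6 or Map3k5, and the gene of eIF2α is not described here.

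Creb3l3, a liver factor of the same family that controls acute-phase and lipid genes, ran the other way. Its signal was 137 and 159 with TG, 1239 and 663 with α-LA and 178, 208 and 192 in the controls. Only α-LA raised it past the threshold, and TG was below α-LA (log2 difference -2.615 ± 0.24 (SE), adjusted p = 0.000135), with the TG array of 18 h under 150 and that of 24 h just above. The α-LA signal at 18 h was the higher of the pair, and the 6 h α-LA array read 291.

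Downstream of PERK most genes did not pass the test between the treatments. Of 20 measured members of this branch 5 were higher with TG and 3 lower, beside 13.4% and 14.2% of all genes, with a median of 0.245. Without control 1 the higher calls were 8, and the lower calls fell to 1 without either TG array or with background subtracted and to 0 with the α-LA arrays of 6 and 18 h. Ddit3, which encodes the proapoptotic factor GADD153/CHOP, had signals of 13284 and 13785 with TG, 3407 and 4938 with α-LA and 505, 679.5 and 604 in the controls. All groups were apart, and TG was 3.3-fold above α-LA (log2 difference 1.72 ± 0.185 (SE), adjusted p = 0.000282). Atf3, a stress factor induced by ATF4, read 755 and 772 with TG, 275.5 and 280.3 with α-LA and 136, 151 and 143 in the controls (log2 difference 1.46 ± 0.10 (SE), adjusted p = 2.95e-05). Ppp1r15a, which encodes GADD34, the phosphatase subunit that restores translation, read 1278 and 1368 with TG, 498.5 and 569.8 with α-LA and 154, 178 and 196 in the controls (log2 difference 1.31 ± 0.13 (SE), adjusted p = 0.000227). For these genes the order was controls, α-LA, TG on every array. Ddit4, an inhibitor of mTOR signalling, was above the controls with TG alone (547 and 586 with TG, 259.7 and 317 with α-LA, log2 difference 0.98 ± 0.12 (SE), adjusted p = 0.000579).

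Gdf15, Cebpb and Atf5 were higher with α-LA than with TG, and above the controls with both. Gdf15, a secreted stress cytokine, had 2027 and 1804 with TG, 3471 and 3629 with α-LA and 288, 356 and 396 in the controls (log2 difference -0.89 ± 0.15 (SE), adjusted p = 0.00273). Against the α-LA arrays of 6 and 18 h its difference turned to 0.273 (adjusted p = 0.798), the 6 h array reading 721.5. The calls of Cebpb (-0.56 ± 0.14) and Atf5 (-0.45 ± 0.10), both transcription factors of the integrated stress response, were also lost with the 6 and 18 h arrays (adjusted p = 0.125 and 0.685), with background subtracted (0.0664 and 0.059) and without a TG array (0.0623 to 0.133 and 0.0688 to 0.088).

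Atf4 and Trib3 did not separate the treatments past the threshold, although each was above the controls with both. Atf4, the factor at the head of this branch, had 5974 and 5857 with TG and 5037.5 and 5158 with α-LA, a log2 difference of 0.215 ± 0.10 (adjusted p = 0.163). Trib3, a CHOP target that feeds back on it, had 1761 and 1559 with TG, 1279 and 1334.5 with α-LA and 251, 301 and 306 in the controls, a log2 difference between the treatments of 0.34 ± 0.13 (adjusted p = 0.0788) beside rises over the controls of 2.54 and 2.20. Asns, the asparagine synthetase that ATF4 controls, was above the controls with α-LA and not with TG (396 and 389 with TG, 760.5 and 629.8 with α-LA and 518, 443 and 429 in the controls, log2 difference -0.82 ± 0.13 (SE), adjusted p = 0.00227). In the list of 20 genes that make or carry amino acids, Asns alone was lower with TG and 2 were higher, and its call was lost against the α-LA arrays of 6 and 18 h (adjusted p = 0.0721). Of 16 cytosolic tRNA synthetases, which ATF4 also controls, 2 were higher with TG and none lower. These higher calls were not kept without either TG array. Beside both lists stand 13.4% of all genes higher and 14.2% lower.

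Genes that handle ER calcium, the store that TG empties, were partly higher with TG. Of 20 measured members 8 were higher and 2 lower, with a median of 0.379. Saraf, which shuts off store-operated calcium entry, had signals of 5217 and 4555 with TG, 1534 and 1818 with α-LA and 1501, 1529 and 1466 in the controls. TG stood 2.92-fold above α-LA (log2 difference 1.545 ± 0.12 (SE), adjusted p = 5.18e-05), and the α-LA signals lay just above the controls without passing the test. Nucb2, a calcium-binding protein, read 1117.5 and 1051.5 with TG, 414 and 489 with α-LA and 210.2, 189 and 237 in the controls (log2 difference 1.27 ± 0.13 (SE), adjusted p = 0.000263). Rcan1, an inhibitor of the calcium-dependent phosphatase calcineurin and a target of its pathway, and Atp2b1, the calcium pump of the plasma membrane, were above the controls with TG alone, by log2 differences of 1.28 and 0.95, and differed between the treatments by 1.135 ± 0.12 and 0.88 ± 0.10. Atp2a2, which encodes the pump that TG blocks, had 1170.5 and 1219 with TG, 955 and 1178 with α-LA and 1486, 1558 and 1396 in the controls, with a difference of 0.17 ± 0.12 between the treatments (adjusted p = 0.362) and a fall below the controls that passed with α-LA alone. The largest fall in the list was that of Bok, a BCL2-family protein that binds ER calcium channels, with 204 and 199.5 with TG, 849 and 788 with α-LA and 1047, 1042 and 1055 in the controls, a 4.05-fold difference (log2 difference -2.02 ± 0.10 (SE), adjusted p = 5.35e-06).

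A part of the detoxifying genes was lower with TG than with α-LA. Of 32 measured targets of NRF2, the factor that responds to electrophiles and oxidants, 13 were lower and 1 higher, and 18 did not pass. The shares of all genes were 14.2% lower and 13.4% higher, and the median of the list was −0.348. The median was -0.198 without the α-LA array of 24 h and -0.54 with the α-LA arrays of 6 and 18 h, with 14 members lower in each. Gclc, which encodes the catalytic subunit of the enzyme that limits glutathione synthesis, had signals of 2514 and 2235 with TG, 7694.5 and 7491 with α-LA and 4531, 3891 and 3706 in the controls. It rose with α-LA and fell with TG relative to the controls, and the treatments were 3.2-fold apart (log2 difference -1.68 ± 0.12 (SE), adjusted p = 4.34e-05). Gclm, the regulatory subunit of the same enzyme, was lower with TG than in the controls while the α-LA call against the controls was not reached (2849 and 2626 with TG, 4815 and 4464 with α-LA and 5486, 4690.2 and 4993 in the controls, log2 difference -0.76 ± 0.11 (SE), adjusted p = 0.00157). Osgin1, an oxidative stress gene, was above the controls with α-LA alone, and the treatments differed by -0.93 ± 0.12.

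The glutathione S-transferases of the list fell below the controls with TG by more than with α-LA. Gsta2 had 303 and 331 with TG, 2248.5 and 1568 with α-LA and 3399, 3531 and 3242 in the controls (log2 difference -2.57 ± 0.16 (SE), adjusted p = 1.55e-05). Gsta5, a related transferase outside the list, had 999.9 and 1084 with TG, 14429.8 and 9303.5 with α-LA and 21045, 21840.5 and 22287 in the controls. This 11.1-fold difference (log2 difference -3.48 ± 0.18 (SE), adjusted p = 7.53e-06) was the largest fall among the probes tested, and probes of such near-identical family members may share targets. Gsta4 and Gstm2 were lower with TG by -1.82 ± 0.14 and -1.33 ± 0.12. Nfe2l2, which encodes NRF2 itself, was lower with TG as well (2259.5 and 2133 with TG, 3704 and 3369.7 with α-LA and 4908, 4034 and 4399.8 in the controls, log2 difference -0.69 ± 0.12 (SE), adjusted p = 0.00337). The core letters of the antioxidant response element, TGACNNNGC on either strand, stood in 13.1% of all genes with a promoter window. They stood in 9 of 27 of this list (33.3%) and in 8 of 17 of the PERK branch (47.1%). The other lists searched ranged from 0% (disulfide enzymes) to 30.8% (ER-associated degradation), with secreted plasma proteins at 30%.

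Hmox1 and Nqo1, classic NRF2 targets, did not separate the treatments past the threshold. Hmox1, the inducible heme oxygenase, had 1304 and 1214 with TG, 1196 and 1631 with α-LA and 386.5, 347 and 347 in the controls, with a log2 difference between the treatments of -0.15 ± 0.15 (adjusted p = 0.513) beside rises over the controls of 1.81 and 1.96. Nqo1, a quinone reductase, was below the controls with both treatments and differed by -0.18 ± 0.19 (adjusted p = 0.541). Among enzymes outside the list, Ugt2b7, a glucuronosyltransferase, had 659.8 and 745 with TG, 6983 and 7046 with α-LA and 9402, 7265 and 8173 in the controls, a 10-fold difference (log2 difference -3.32 ± 0.13 (SE), adjusted p = 3.83e-06). Its α-LA signals were nearly equal at 18 and 24 h and lay below the controls, but that gap did not pass the test. Of 11 further xenobiotic enzymes 3 were lower with TG, among them the monooxygenase Fmo1 (-1.18 ± 0.15), and 1 was higher. Beside these stand 14.2% and 13.4% of all genes. The other 7 did not pass, and the median of the 11 was -0.038.

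**Figure D3:**
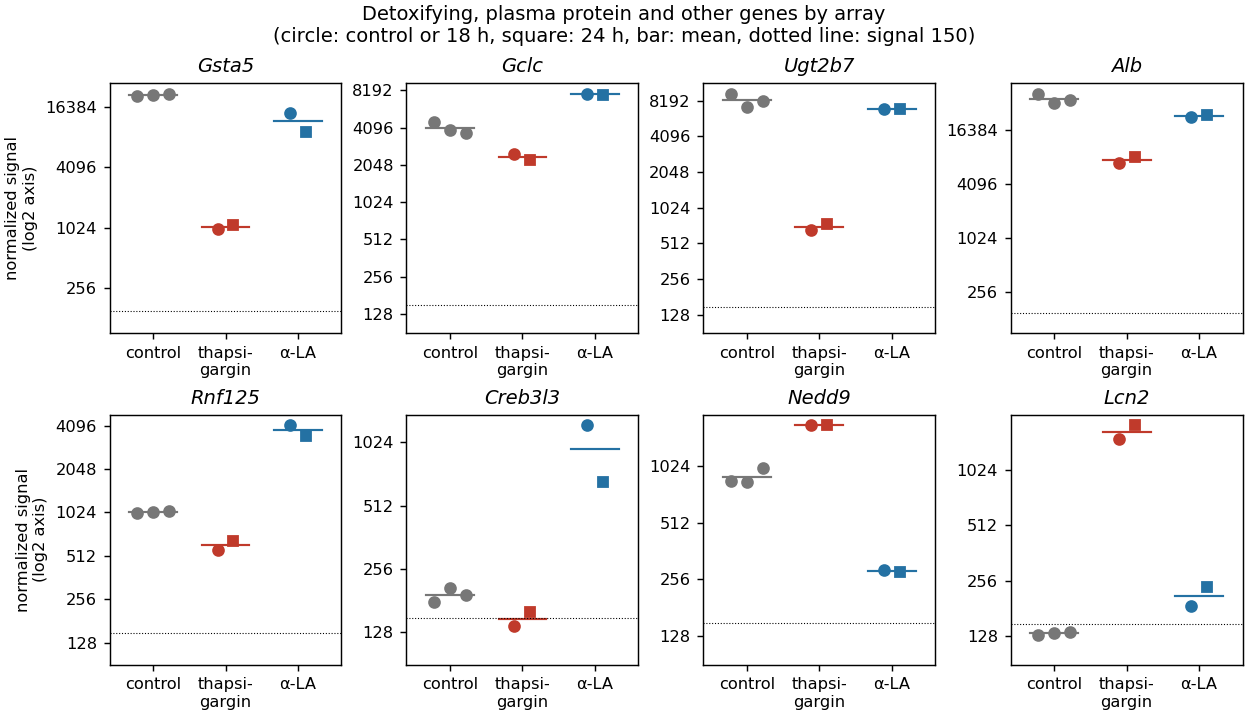
Normalized signal (log2 axis) of 8 genes on the 3 control arrays (grey), the 2 TG arrays (red) and the 2 α-LA arrays (blue), drawn as in the plot of UPR genes. Gsta5, Gclc, Ugt2b7, Alb, Rnf125 and Creb3l3 are lowest with TG, while Nedd9 and Lcn2 are highest with it, and Gclc, Rnf125, Nedd9 and Creb3l3 have their 2 treatments on opposite sides of the controls, although the TG signals of Creb3l3 did not pass the test against them.

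Plasma proteins of the liver were lower with TG. Of 23 measured genes 14 were lower and 2 higher, beside 14.2% and 13.4% of all genes, with a median of −0.868. The higher ones were Lcn2, described below, and Serpina1, the antitrypsin gene (0.39 ± 0.11), whose difference against the α-LA arrays of 6 and 18 h was -0.041. Alb, which encodes albumin, had signals of 7056 and 8229 with TG, 23343 and 24465 with α-LA and 41631, 33161 and 35866 in the controls. No groups overlapped, and TG was the lowest, 3.14-fold below α-LA (log2 difference -1.65 ± 0.13 (SE), adjusted p = 6.24e-05). Fgb, the β chain of fibrinogen, read 406 and 421 with TG, 1862 and 1318 with α-LA and 3572, 3228 and 2879 in the controls (log2 difference -1.92 ± 0.165 (SE), adjusted p = 8.99e-05). Apoe, an apolipoprotein, was near the controls with α-LA and 2.81-fold lower with TG (4323 and 4194 with TG, 11439 and 12546 with α-LA and 14182, 12588 and 10653 in the controls). Transferrin (Tf) differed by -1.33 ± 0.13, while Itih3, a protease inhibitor chain, was at least 2.86-fold lower and plasminogen (Plg) at least 2.19-fold lower, because their TG signals were under 150. Ahsg, which encodes fetuin-A, and the fibrinogen chain gene Fgg did not pass, with differences of -0.31 ± 0.13 and -0.28 ± 0.135.

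The summed signal of the 9 measured hepatocyte markers was 91730 to 111922 in the controls, 76953 to 79616 with α-LA and 41722 to 41887 with TG. Most of this sum lies in Alb, Tf and Ahsg. Mean signals with TG and in the controls were 7643 and 36886 for Alb and 8831 and 31282 for Tf. Ahsg (23394 and 24085) and Cebpa (215 and 201) stayed near the controls. Of 7 markers tested, 4 were lower and 1 higher with TG than with α-LA. The sum moved with the plasma protein list, with which it shares genes, and its part in that result was not tested. In these pooled wells fewer cells that express a gene and less RNA per cell cannot be told apart. Transcription factors of the hepatocyte followed in direction, with 7 of 11 lower with TG, none higher and a median of −0.427. Onecut1, the factor HNF6, had 1610.2 and 1663 with TG, 2671 and 2505 with α-LA and 3979.5, 3694 and 3635 in the controls (log2 difference -0.66 ± 0.10 (SE), adjusted p = 0.00179). Nr1i2, the xenobiotic receptor PXR, was lower with TG alone (271 and 265 with TG, 404 and 426 with α-LA and 406, 428 and 405 in the controls, log2 difference -0.63 ± 0.10 (SE), adjusted p = 0.00183). Without either TG array 2 members were called. Mttp, which loads lipid onto lipoproteins, and the hepatic lipase gene Lipc were lower with TG by 4.1-fold (165 and 158 with TG, 765 and 575 with α-LA) and 4.58-fold (234.5 and 206 with TG, 1149 and 882 with α-LA).

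Lcn2, Dusp1 and Nedd9 had the largest rises of named genes with TG over α-LA. Lcn2, a secreted iron-siderophore binder of the acute phase, had signals of 1494 and 1783 with TG, 187 and 238 with α-LA and 130, 134 and 136 in the controls. All controls were under 150, and TG was 7.74-fold above α-LA (log2 difference 2.95 ± 0.14 (SE), adjusted p = 5.34e-06). Dusp1, the phosphatase that switches off MAP kinases, read 2619 and 2688 with TG, 351 and 361 with α-LA and 342, 309.6 and 324 in the controls, so that α-LA stayed near the controls and TG was 7.45-fold higher (log2 difference 2.90 ± 0.10 (SE), adjusted p = 1.8e-06). The interferon-responsive genes Slfn4 and Ifi27l2b differed by 2.25 ± 0.13 and 2.30 ± 0.29. Oasl was higher by at least 4.2-fold and the chemokine gene Cxcl10 by at least 3-fold, as their α-LA and control signals were under 150. Cxcl10 read 448 and 452 with TG and 123 and 143 with α-LA. Another interferon-induced gene, Mx1, had the opposite direction, with 139.9 and 126 with TG, 406 and 681.5 with α-LA and 345, 308 and 353 in the controls, at least 3.51-fold lower with TG (log2 difference -1.99 ± 0.21 (SE), adjusted p = 0.000254).

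Cd24, a surface glycoprotein, and Agt, the precursor of angiotensin, were above the controls with TG alone. Cd24 read 10918 and 10842 with TG, 3128 and 2385 with α-LA and 2624, 2711 and 3112 in the controls (log2 difference 1.99 ± 0.14 (SE), adjusted p = 3.85e-05), and Agt 3403 and 3977 with TG, 935 and 914 with α-LA and 989, 1188 and 1206 in the controls (log2 difference 1.99 ± 0.13 (SE), adjusted p = 2.22e-05). The protein of Agt is itself secreted by the liver, although the gene was not on the plasma protein list. Mt1, a metallothionein, had controls that were far apart (6478, 16403 and 13522) beside 24465 and 21566 with TG and 7294 and 3363 with α-LA (log2 difference 2.21 ± 0.43 (SE), adjusted p = 0.00583). Its call was lost without the TG array of 18 h (adjusted p = 0.0622) and against the α-LA arrays of 6 and 18 h (adjusted p = 0.126).

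**Figure D4:**
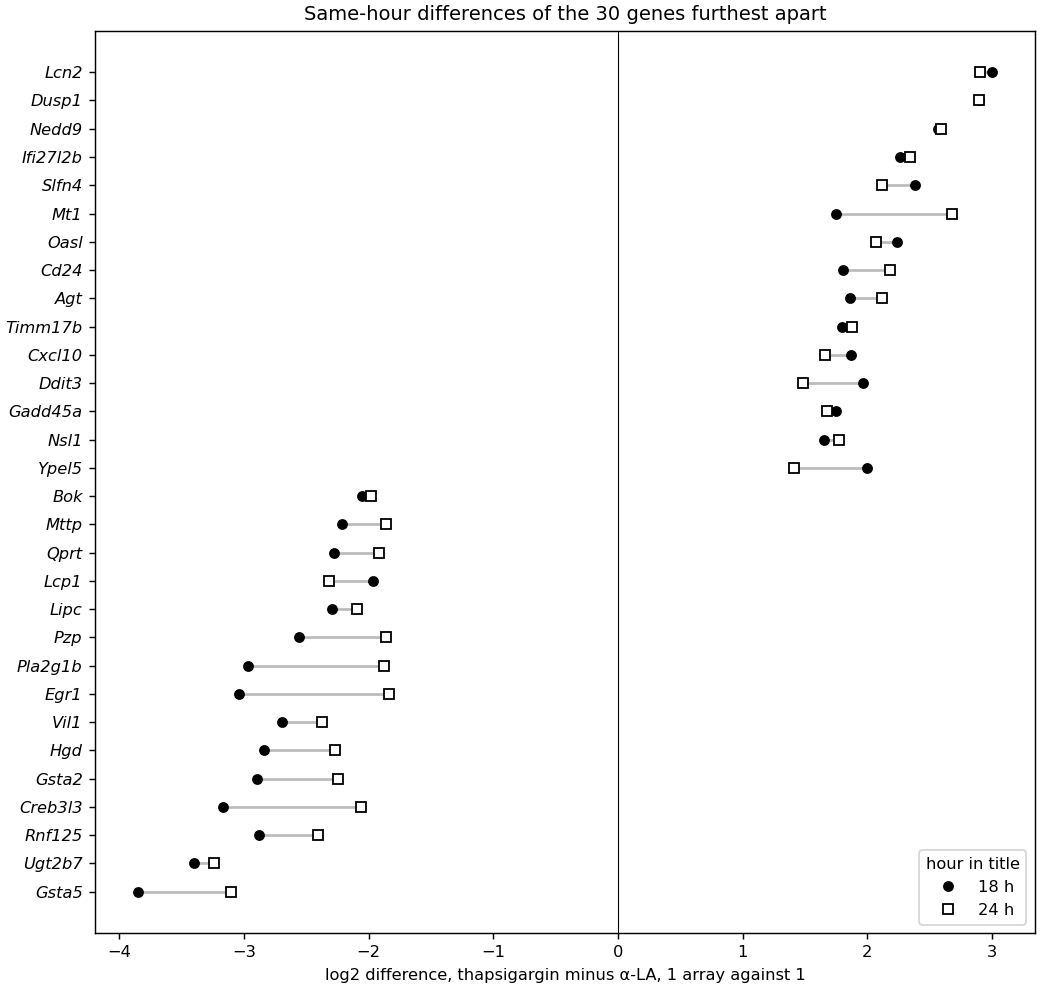
Log2 difference (TG minus α-LA, x axis) of the 15 genes most above and the 15 most below in TG, at 18 h (filled circles) and 24 h (open squares), 1 array against 1, joined by grey lines. All 30 genes keep their direction at both hours, as their choice required both TG arrays above or below both α-LA arrays. The falls are larger at 18 h for 14 of the 15 genes, with Lcp1 the exception.

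The same-hour differences have no replicate check. All 2286 called probes had the same sign at 18 and 24 h, but the calls were made on these same arrays. This agreement is therefore no separate check of the hours. A difference of at least 2-fold was seen for 446 probes at 18 h and 310 at 24 h, and 208 of these were past 2-fold in the same direction at both. ER chaperones had a median of 1.147 at 18 h and 0.704 at 24 h, secreted plasma proteins −1.111 and −0.678, and G2 and mitosis genes 0.598 and 0.027. Ddit3 differed by 1.96 at 18 h and 1.48 at 24 h, and Hspa5 by 1.29 and 0.70, in both cases with the α-LA signal higher at 24 h and the TG signals closer together. Atf3 differed by 1.455 at 18 h and 1.46 at 24 h.

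Some genes lay on opposite sides of the controls, past the threshold in each comparison. Rnf125, a ubiquitin ligase that restrains antiviral signalling, had signals of 562 and 652 with TG, 4145 and 3455 with α-LA and 1012, 1035 and 1056 in the controls. It was lower than every control with TG and higher with α-LA, 6.25-fold apart (log2 difference -2.64 ± 0.12 (SE), adjusted p = 5.34e-06). Hgd, an enzyme of tyrosine breakdown, showed the same arrangement (414 and 478 with TG, 2969.5 and 2311.5 with α-LA and 1413.5, 1386 and 1461 in the controls, log2 difference -2.56 ± 0.135 (SE), adjusted p = 8.06e-06). Egr1, an immediate early transcription factor, and Pla2g1b, a secreted phospholipase, were also lower with TG and higher with α-LA than the controls. Egr1 read 138 and 169 with TG, 1135 and 603 with α-LA and 386, 409 and 453 in the controls, with the α-LA array of 18 h the higher of the pair (log2 difference -2.44 ± 0.25 (SE), adjusted p = 0.000226). Against the α-LA arrays of 6 and 18 h the adjusted p was 0.0501 for Egr1 and 0.0601 for Pla2g1b.

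Atp1b1, the β subunit of the sodium pump, read 498 and 519 with TG, 1912 and 1676 with α-LA and 1261, 1193 and 1397 in the controls (log2 difference -1.82 ± 0.12 (SE), adjusted p = 2.02e-05). Its adjusted p against the α-LA arrays of 6 and 18 h was 0.0647. The galectin gene Lgals4 and the elongation factor gene Tcea3 had TG signals under 150 and were at least 2.84-fold and at least 3.52-fold lower with TG. In the other direction, Nedd9, a scaffold of adhesion signalling, read 1705 and 1698 with TG, 288 and 281 with α-LA and 853, 844 and 1003 in the controls. It rose with TG and fell with α-LA, 5.98-fold apart (log2 difference 2.58 ± 0.11 (SE), adjusted p = 5.34e-06). Timm17b, a subunit of the mitochondrial import channel, had the same arrangement (1519 and 1673 with TG, 437 and 454.5 with α-LA and 620.1, 938 and 914 in the controls, log2 difference 1.84 ± 0.18 (SE), adjusted p = 0.000215).

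Cell cycle genes were below the controls with both treatments and differed less between them. All 33 measured S phase and replication genes were lower than the controls with each, beside 19.7% of probes lower with TG and 14.7% with α-LA. Between the treatments 2 were higher with TG and 6 lower, beside 13.4% and 14.2% of all genes, with a median of −0.157. The lower calls fell to 2 without the TG array of 18 h, 1 without that of 24 h and 3 without control 3, while the median moved to -0.307 without the α-LA array of 18 h, to -0.098 without that of 24 h and to -0.603 with the α-LA arrays of 6 and 18 h. Mcm3, part of the replicative helicase, read 309.6 and 299 with TG, 398 and 409 with α-LA and 1625, 1632 and 1537 in the controls. The difference between the treatments (log2 difference -0.41 ± 0.10 (SE), adjusted p = 0.0144) was small beside the falls of both, and it was lost without either TG array (adjusted p = 0.0733 and 0.0974), with the later α-LA arrays in the fit (0.0751) and with the α-LA arrays of 6 and 18 h (0.0803). Of 31 G2 and mitosis genes 26 were below the controls with TG and 30 with α-LA. Between the treatments 8 of them were higher with TG and none lower, beside 13.4% and 14.2% of all genes. Stmn1, a microtubule destabiliser, had 2464 and 3096 with TG, 901 and 1386 with α-LA and 4584.5, 3505 and 3776 in the controls (log2 difference 1.31 ± 0.21 (SE), adjusted p = 0.00231), so that its fall passed the test with α-LA alone. Against the α-LA arrays of 6 and 18 h 0 members were called higher, while 2 were called without either TG array, 3 without the α-LA array of 18 h and 19 without that of 24 h.

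The proliferation genes Ccnd1 and Myc were lower with TG. Cyclin D1 (Ccnd1) read 1804 and 1937 with TG, 2825 and 3079 with α-LA and 3085, 4022 and 4029 in the controls (log2 difference -0.66 ± 0.14 (SE), adjusted p = 0.01), with the call lost without either TG array (adjusted p = 0.0893 and 0.0546). Myc rose over the controls with both, and by more with α-LA (1784 and 1705 with TG, 3287 and 3497 with α-LA and 1447, 1074 and 1213 in the controls, log2 difference -0.96 ± 0.14 (SE), adjusted p = 0.0014). Targets of p53 were higher with TG, with 7 of 9 measured genes higher, none lower and a median of 0.573 (1.487 with background subtracted). Gadd45a, a DNA damage and stress gene, had 3103 and 3604.5 with TG, 923 and 1124.5 with α-LA and 942, 999.7 and 919.7 in the controls. The α-LA signals did not differ from the controls past the threshold, and TG was 3.28-fold higher (log2 difference 1.715 ± 0.13 (SE), adjusted p = 4.46e-05). Ccng1, a cyclin induced by p53, and Tp53inp1, a proapoptotic p53 partner, had the same arrangement with differences of 1.46 ± 0.14 and 1.45 ± 0.10. Mdm2, the ligase that degrades p53, rose with both and was higher with TG by 0.72 ± 0.11. Without either TG array 4 of the 9 were called.

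Among 24 genes of the BCL2 family, caspases and death receptors 7 were higher with TG, while Bok, given above, was the only one lower. The shares of all genes were 13.4% and 14.2%, and the median of the list was 0.207. Bak1, a pore-forming effector of the mitochondrial membrane, had 1098 and 1094 with TG, 619 and 696 with α-LA and 689, 692 and 749.7 in the controls (log2 difference 0.74 ± 0.105 (SE), adjusted p = 0.00128). Casp12, the ER-resident caspase of rodents, differed by 0.49 ± 0.13, a call lost without either TG array (adjusted p = 0.121 and 0.103), with background subtracted (0.0702), without the α-LA array of 18 h (0.0563) and with the α-LA arrays of 6 and 18 h (0.164). The count of higher members fell to 2 without the TG array of 18 h and to 3 without that of 24 h.

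Lysosome and autophagy genes were higher with TG for 13 of 30 measured members and lower for 2, with a median of 0.432. Gabarap, which builds autophagosome membranes, read 5395.5 and 6629 with TG, 2489 and 2787 with α-LA and 1119.8, 1009 and 1392 in the controls. It rose with both treatments, and TG was 2.27-fold above α-LA (log2 difference 1.18 ± 0.16 (SE), adjusted p = 0.00109). Atp6v0d1, a subunit of the proton pump that acidifies lysosomes, differed by 1.07 ± 0.12 and was above the controls with TG alone. Sqstm1, the autophagy receptor p62, had 7175.5 and 7121 with TG and 2641.5 and 5553 with α-LA (log2 difference 0.90 ± 0.31 (SE), adjusted p = 0.0642), with its α-LA arrays further apart than those of TG. Lamp2, a membrane protein of lysosomes, was lower with TG (log2 difference -0.60 ± 0.10 (SE), adjusted p = 0.00273), but against the α-LA arrays of 6 and 18 h the difference was 0.028. Without either TG array 8 members were called higher.

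Lipid genes moved in parts. Of 18 genes of sterol synthesis 9 were higher with TG and 1 lower, with a median of 0.276. Squalene epoxidase (Sqle) had 1929 and 1683 with TG, 769.5 and 1089 with α-LA and 887, 783 and 869 in the controls (log2 difference 0.98 ± 0.16 (SE), adjusted p = 0.00272), and the sterol carrier gene Stard4 was lower than the controls with α-LA alone (468 and 415 with TG, 176 and 160 with α-LA and 368.5, 424 and 392 in the controls, log2 difference 1.39 ± 0.12 (SE), adjusted p = 7.38e-05), with an adjusted p of 0.0549 against the α-LA arrays of 6 and 18 h. Dhcr7, the last enzyme of the pathway, was the one that was lower (-0.72 ± 0.10). Without either TG array 4 members were called higher. Of 16 genes of fatty acid oxidation 4 were lower with TG and none higher, beside 14.2% and 13.4% of all genes. Cpt1a, which brings fatty acids into mitochondria, had 391 and 376 with TG, 1199.6 and 969.5 with α-LA and 959.8, 1001 and 993 in the controls. Only TG lowered it, 2.82-fold below α-LA (log2 difference -1.49 ± 0.12 (SE), adjusted p = 5.97e-05).

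The remaining lists are given by their counts, beside the 27.6% of all genes called. Of 13 lipoate-dependent and lipoate-attaching enzymes, the group for which α-LA is a cofactor, 3 were higher with TG and 1, the glycine decarboxylase Gldc, was lower, with a median of 0.106. Of 32 subunits of oxidative phosphorylation 2 were higher with TG (Ndufa5 and Cox5b) and none lower, of 21 genes of ribosome biogenesis 4 were lower (2 without the TG array of 18 h) and none higher, and of 8 cytosolic heat shock genes 1 was higher and 1 lower. Nucleolin (Ncl), a ribosome assembly protein, had 3891 and 3568 with TG and 6299 and 7678 with α-LA (log2 difference -0.90 ± 0.16 (SE), adjusted p = 0.00379). Hspb8, the small heat shock protein that was higher, had 4365 and 4420.3 with TG, 1355 and 1862 with α-LA and 1091, 1042 and 1028 in the controls (log2 difference 1.47 ± 0.14 (SE), adjusted p = 0.000192). Fatty acid synthesis had 1 higher and 3 lower of 11, and gluconeogenesis 2 higher and 4 lower of 10. Without the TG array of 18 h or of 24 h the lower calls were 1 and 0 in fatty acid synthesis and 1 and 1 in gluconeogenesis, and 0 subunits of oxidative phosphorylation were called. Regulators of G1 had 1 higher and 2 lower of 11, and immediate early and inflammatory genes 5 higher and 2 lower of 15.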

How the data were processed

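RNA of FaO cells was amplified, biotin-labelled and hybridised to Illumina RatRef-12 arrays. The authors read bead intensities with BeadStudio 3.0.19.0 and quantile-normalized them, and the deposited intensity values are linear with background still in them. They were taken as log2. The arrays hold 22523 probes, of which 9193 had a signal of 150 or more on at least 3 of the 12 arrays and were tested, 6830 of them at 150 on every array. By gene ID and accession 13793 probes carried 1 gene symbol and 8730 none, and 6695 of the probes tested were named. A non-normalized table with 24 value columns that match no sample by name was not used.

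Groups were taken from the titles. The 3 control, 2 TG and 2 α-LA arrays of 18 and 24 h were fitted in 1 linear model with moderated variances (limma 3.58.1, R 4.3.3, functions lmFit and eBayes, residual degrees of freedom 4, prior 5.251), with TG minus α-LA as the contrast. Adjusted p-values (Benjamini-Hochberg, over all probes tested, two-sided) under 0.05 were called. The script was tested on simulated data. For a gene with several probes the probe with the highest mean log2 signal was used. Where both arrays of the lower group were under 150, the fold was taken against 150 and is written as at least that fold. The number of arrays limits the precision.

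The members, the gene lists and the tests were chosen with earlier results of these data known. Genes could be named if the study names them, if they were among the 15 most above or below, if they were the leading called (up to 5 in each direction) or uncalled (up to 3) members of a list, or if they were called on opposite sides of the controls (up to 10). The 15 most above or below had both TG arrays above, or both below, both α-LA arrays. Not all genes under this rule are described. Atf4, Atp2a2, Calr, Dnajc3, Fgg, Gclm, Mogs, Nfe2l2, Nqo1, Osgin1, Sdf2l1, Syvn1, Vcp and Zfand2a were added for their roles after their values were seen. The alternatives were not run on these gene by gene. Alternatives changed the probe filter, the background (the 25th percentile of each array subtracted, floor 16), the centring, the variance prior, the arrays in the fit and the α-LA hours, and left out each replicate in turn.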

Additional observations from a re-analysis of the deposited data

Results flagged for a closer look

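Ppp3r1, which encodes the regulatory subunit of the calcium-dependent phosphatase calcineurin, stood on opposite sides at the 2 hours, with a log2 difference (TG minus α-LA) of 0.702 at 18 h and -0.613 at 24 h. It was the only named probe past 1.5-fold in opposite directions at the 2 hours. Signals were 845 and 901 with TG at 18 and 24 h, 519 and 1378 with α-LA and 351, 368 and 365 in the controls, so that TG was level across the hours while α-LA was below it at 18 h and above it at 24 h. Each hour holds 1 array per treatment, and the difference between the hours was not tested.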

How the results depend on the processing

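The number of probes called between TG and α-LA stayed between 1636 and 2588 under the alternatives of filter, background, centring, variance prior, arrays in the fit and α-LA hours. Against the α-LA arrays of 6 and 18 h it was 1724 (914 higher, 810 lower). Leaving out 1 array at a time gave 942 to 2551, the lowest without the TG array of 18 h and 1031 without that of 24 h, and 2269 to 4067 for TG against the controls, with 2269 and 2374 without a TG array. α-LA against the controls gave 1998 to 2795. The deviations of the 18 h arrays from their group means had a correlation of −0.056 over probes. With 1 array per treatment and hour this value cannot decide whether the hours pair the samples. With the title hour as a replicate block 2193 probes were called. Of 172 named genes called, 37 were lost with background subtracted, 68 and 62 without the TG array of 18 and of 24 h, and 8 with the replicate block. With the α-LA arrays of 6 and 18 h 40 were lost and 4 turned sign, namely Gdf15 (0.273), Gins4 (-0.14), Serpina1 (-0.041) and Lamp2 (0.028). The list median of amino acid genes ranged from -0.015 to 0.134 when arrays were left out, and that of gluconeogenesis turned to 0.081 with a signal of 150 on every array and 0.238 with a median signal over 300, where fewer genes were tested. The cause of the other changes was not tested.

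Each treatment has 2 arrays, taken at different hours, so hour and replicate cannot be told apart within a treatment. Genes near background have understated folds, and genes under 150 have only a bound.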
